A study of Homo sapiens with 10 samples.

Results

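The BCL2 family sets the threshold at which a cell commits to death through its mitochondria. Its members were chosen here by name, 10 of the 20327 genes in each library's table: the anti-apoptotic genes MCL1, BCL2 and BCL2L1 (which encodes BCL-XL), the pore-forming effectors BAX and BAK1, and the BH3-only genes BBC3 (PUMA), PMAIP1 (NOXA), BCL2L11 (BIM), BMF and BIK. All 10 were found by Ensembl identifier. Their RNA was measured in hTERT RPE-1, an established wild-type human line from retinal pigment epithelium immortalised with telomerase. In a first experiment, cells held for 48 h in 0.1% serum received merbarone at 200 µM for 30 min or its solvent DMSO for 30 min, with 3 libraries in each group. In a second, cells starved in the same way received merbarone at 200 µM for 120 min (2 h) or were left untreated, with 2 libraries in each group, so the controls of the second experiment had received no vehicle. Merbarone is a catalytic inhibitor of topoisomerase II, the enzyme that relieves supercoils and tangles by passing one DNA duplex through another. The study concerns DNA supercoiling and the pausing of RNA polymerase II, and each comparison asks how RNA levels stood after merbarone relative to the control of the same experiment. All groups were serum starved, and all came from a single line.

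BAX and BAK1 open pores in the outer mitochondrial membrane, through which cytochrome c escapes to switch on caspases. MCL1, BCL2 and BCL-XL hold the effectors and their activators in check. BH3-only proteins are the sensors: they bind the anti-apoptotic proteins, and some of them also activate BAX and BAK1 directly. Many BH3-only genes are regulated by transcription. BBC3 and PMAIP1 are known targets of the ATF4 and CHOP (DDIT3) pathway under amino acid or endoplasmic reticulum stress, while BCL2L11 and BMF are known to respond to withdrawal of growth factors or of attachment. MCL1 RNA and protein both turn over quickly, which makes MCL1 sensitive to a block of transcription.

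BBC3 and PMAIP1 were the members whose RNA rose after 2 h of merbarone by both of the fits used here, and the stretch around the start site of each is printed for that reason. The sequences are those of RefSeq (GRCh38.p14), from 250 bases before to 50 bases after the start, 5′ to 3′ on the strand of the gene. BBC3 lies at chr19:47232618-47232917 on the minus strand and PMAIP1 at chr18:59899746-59900045 on the plus strand. Capitals mark matches to 4 motifs searched on both strands: the CREB/ATF core TGACG, the core TGATGNAA of the C/EBP-ATF response element, the E-box CACGTG and the AP-1 site TGANTCA.
BBC3: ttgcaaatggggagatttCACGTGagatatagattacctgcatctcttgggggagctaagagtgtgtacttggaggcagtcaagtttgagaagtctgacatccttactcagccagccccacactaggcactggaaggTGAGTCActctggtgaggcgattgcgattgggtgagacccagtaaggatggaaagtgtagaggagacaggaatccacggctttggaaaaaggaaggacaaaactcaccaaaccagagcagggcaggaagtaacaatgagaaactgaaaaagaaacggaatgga
PMAIP1: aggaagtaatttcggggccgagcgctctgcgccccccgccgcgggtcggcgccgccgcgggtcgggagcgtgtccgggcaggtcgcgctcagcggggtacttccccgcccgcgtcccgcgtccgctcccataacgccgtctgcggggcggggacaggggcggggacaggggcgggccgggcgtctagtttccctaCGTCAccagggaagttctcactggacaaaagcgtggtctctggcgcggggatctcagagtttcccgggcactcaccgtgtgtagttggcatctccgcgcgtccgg
The BBC3 window held an E-box whose first base was at -232 from the start and an AP-1 match, TGAGTCA, at -113. The PMAIP1 window held a CREB/ATF core on the reverse strand (CGTCA) at -55. No match overlapped another in these windows. Of 35116 promoter windows of that length, 24.6% held TGACG, 7.71% held TGANTCA, 7.26% held CACGTG and 3.62% held TGATGNAA. RefSeq windows were matched for 8 of the 10 members, 10 windows in all, and TGACG was in 5 of them, those of BCL2, BCL2L1, PMAIP1, BMF and BAX. These letters describe the windows only, since binding was not measured here.

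The values are RPKM, reads scaled to the length of the gene and to the depth of the library. For most genes the length behind the RPKM was that of the whole gene, introns included, so a gene with long introns has a low RPKM at the same number of transcripts. This matters for the order of the family. The totals of reads behind the values were 26644379 to 38240706 in the 30 min experiment and 11962092 to 13696974 in the 2 h experiment, and the read numbers of single genes could be recovered exactly from the RPKM steps. Of the lineage markers, RDH5 (5.82 to 10.5 RPKM), PMEL (3.68 to 5.07) and OTX2 (2.35 to 4.61) were present. BEST1 was present too, at 2.1 RPKM or more in every library and with the highest maximum of the lineage markers. MITF was low, at 0.218 to 0.415 RPKM. RPE65, RLBP1, TYR and TTR did not exceed 0.0656 RPKM in any library. The markers of this lineage were thus mixed, and the maturity of the cells is not read from them. The mesenchymal marker VIM stood at 560 to 1110 RPKM, and CD3E and CDH5, markers of T cells and endothelium, were at 0 reads in all 10 libraries. Other immune and endothelial markers were not all at 0: CD14 ranged from 0.038 to 0.259 RPKM and KDR from 0.0207 to 0.0759. The neural marker TUBB3 stood at 8.42 to 19.1 RPKM. The epithelial markers summed to 17.5 to 26.1 RPKM in the 30 min experiment and to 64.8 to 79.2 in the 2 h experiment, so that levels are compared within an experiment only.

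MCL1 had the highest RPKM of the family in all 4 groups, and BIK the lowest. In untreated cells the mean RPKM fell in the order MCL1 (64.3), BAX (14.1), BMF (7.07), PMAIP1 (6.09), BCL2L1 (4.84), BBC3 (0.857), BAK1 (0.687), BCL2L11 (0.520), BCL2 (0.0720) and BIK (0.0251). No neighbours in that order overlapped between the 2 untreated libraries, which is a weak bound at n = 2. In DMSO cells, with 3 libraries, PMAIP1 overlapped with BMF, BMF with BCL2L1, and BCL2L11 with BBC3. After 2 h of merbarone PMAIP1 took the second place and BBC3 stood above BCL2L1 by their means, though the libraries of BBC3 and BCL2L1 overlapped. BCL2 covers 196783 bp for 12612 bp of summed exons, and 164 to 610 reads fell on it in each library. When the same reads were set per kilobase of summed exon, BCL2L1 came first in untreated cells with 68.7 ± 5.96 (SD, n = 2), ahead of MCL1 with 52.0 ± 3.02, BAX with 38.1 ± 3.15 and BMF with 27.3 ± 2.21. BCL2 stayed in the same low place there, at 1.12 ± 0.0516. Of the 10 members, 2 (BCL2 and BIK) kept their rank on this scale in untreated cells, 6 in DMSO cells, 4 after 30 min of merbarone and 6 after 2 h. BCL2L1 was first and MCL1 next in all 4 groups. The summed exons of MCL1, 6222 bp, are longer than the 5035 bp behind its RPKM, which lowers MCL1 on this scale. Its RPKM, 54.1 in DMSO cells and 58.7 after 30 min of merbarone, exceeded the exon-scale means of BCL2L1 there, 51.0 and 49.4. In untreated cells and after 2 h it did not, at 64.3 against 68.7 and 55.0 against 61.3. The sources do not say if reads in BCL2L1 introns were counted. Whether BCL2L1 or MCL1 RNA was the more abundant therefore depends on the length used. BIK had 2 to 13 reads in each library, too few for any comparison, and is given no fold change.

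The plot of deposited RPKM by library shows all 10 members in the 4 groups.

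**Figure D1:**
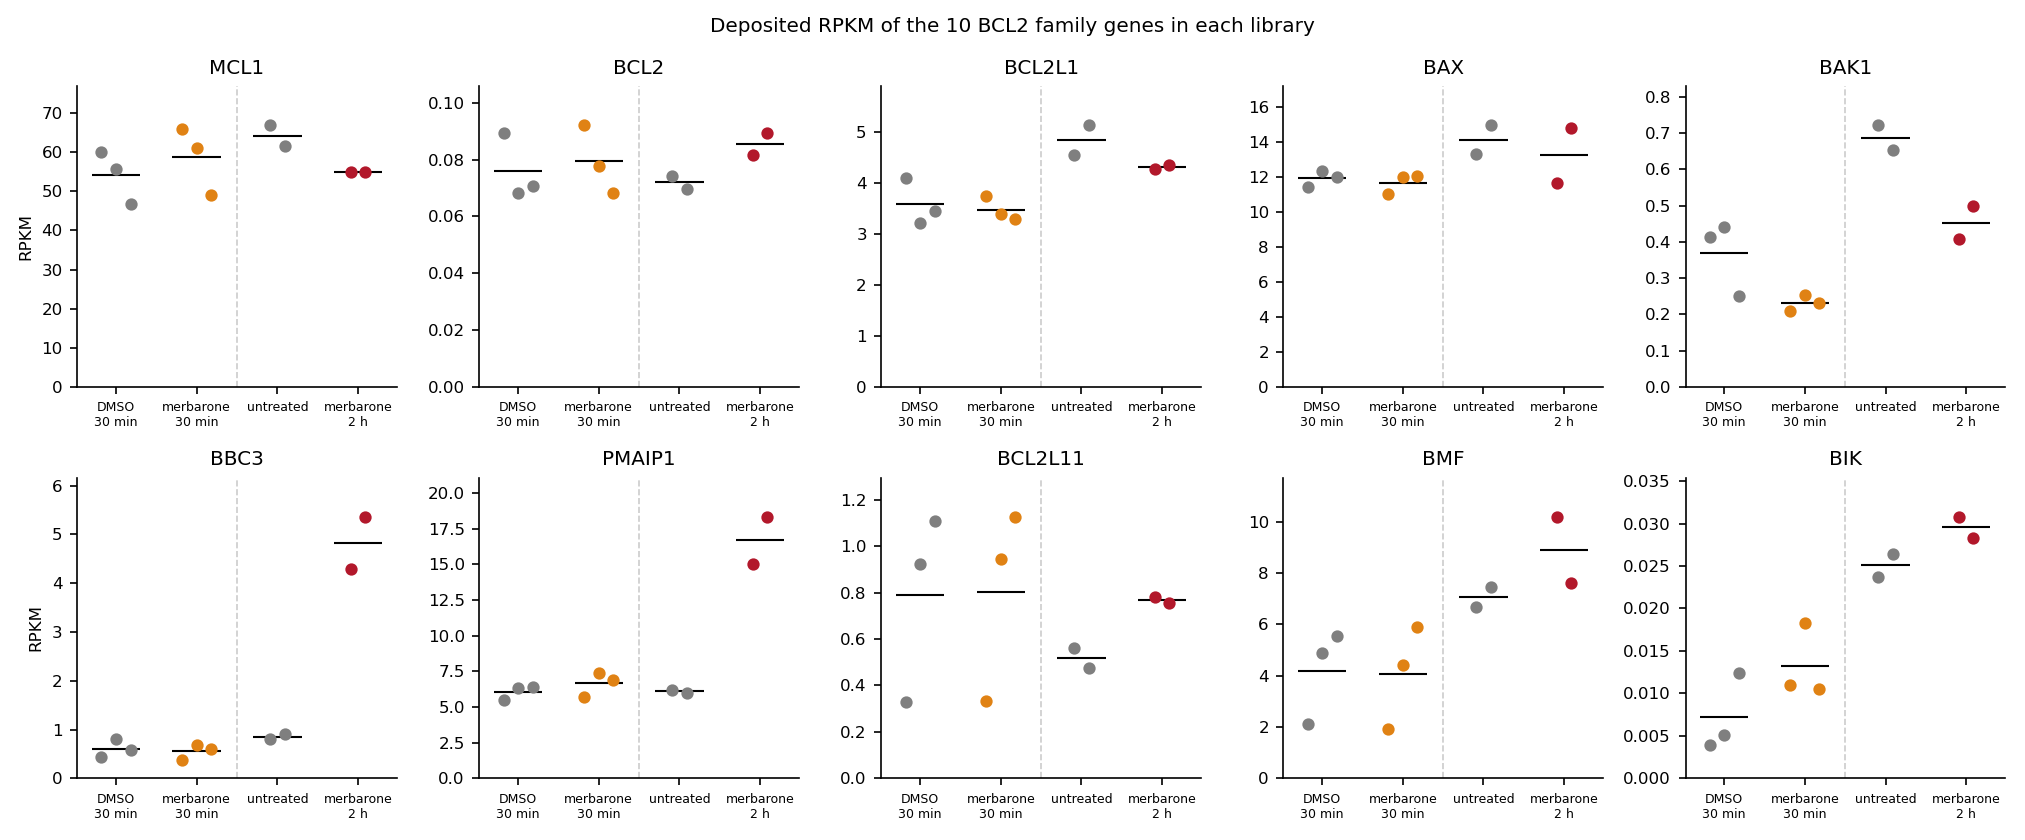
RPKM (vertical axis, from 0, a scale of its own in each panel) of each BCL2 family gene in each of the 10 libraries; points are libraries, horizontal lines are group means, and the dashed line separates the 2 experiments. BBC3 and PMAIP1 stand far above their controls in both 2 h merbarone libraries, while for every member the 30 min merbarone libraries overlap with the DMSO libraries.

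After 30 min of merbarone no member passed the test against DMSO. Among the survival genes, MCL1 stood at 60.0, 55.6 and 46.8 RPKM in DMSO replicates 1 to 3 and at 65.9, 61.1 and 49.1 in the merbarone libraries of the same numbers. The groups overlapped, although each merbarone library lay above its same-numbered control, by 1.10, 1.10 and 1.05 times. The log2 difference of MCL1 was 0.11 with a 95% interval of -0.23 to 0.45, and adjusted p was 1.0 in limma. BCL2L1 stood at 4.09, 3.23 and 3.46 RPKM with DMSO and at 3.76, 3.39 and 3.30 with merbarone, and its interval, -0.23 to 0.17, was among the narrower ones of the family. BCL2 ranged from 0.0684 to 0.0893 RPKM with DMSO and from 0.0683 to 0.0921 with merbarone.

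The effector BAX had the narrowest interval of the members limma tested at 30 min. It stood at 11.4, 12.3 and 12.0 RPKM in the DMSO and 11.0, 12.0 and 12.0 in the merbarone libraries, a log2 difference of -0.03 (-0.17 to 0.12). BAK1 was lower in each merbarone library than in its same-numbered control: 0.415, 0.441 and 0.252 RPKM with DMSO against 0.209, 0.253 and 0.230 with merbarone. These values rest on 54 to 104 reads. The groups overlapped because DMSO replicate 3 lay below merbarone replicate 2. In limma voom on the recovered reads, an alternative that needs a mean of 10 reads or more per library, the log2 difference of BAK1 was -0.60 (-1.23 to 0.03) and adjusted p was 1.0. BAK1 shares part of its span with GGNBP1 on the opposite strand, and whether the authors counted by strand is not given in the sources used here.

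BBC3 and PMAIP1, the BH3-only genes that rose at 2 h, were not separated from their controls at 30 min. BBC3 had 0.443, 0.807 and 0.574 RPKM with DMSO and 0.366, 0.681 and 0.609 with merbarone. PMAIP1 had 5.49, 6.32 and 6.41 RPKM with DMSO and 5.72, 7.39 and 6.86 with merbarone, a log2 difference of 0.11 (-0.13 to 0.35). Both overlapped between the groups, although each PMAIP1 merbarone library lay above its same-numbered control, by 1.04, 1.17 and 1.07 times. With the replicate number as a block the limma intervals left out 0, at 0.01 to 0.21 for PMAIP1 and 0.01 to 0.21 for MCL1. Adjusted p stayed at 1.0 for both in limma. The interval of BAK1 in voom with the block, -1.07 to -0.23, left out 0 as well, while that without the block, given above, did not. Of the 10 members, 5 (MCL1, BCL2L1, PMAIP1, BAX and BMF) passed the filter of a mean of at least 1 RPKM, and 0 were called by limma at an adjusted p under 0.05, where 0.0154% of the 6500 genes tested were called. Voom tested 9 members and called 0, with 0.00714% of 14013 genes called. At an unadjusted p under 0.05 the counts were 24 genes in limma and 41 in voom, with 0 members in either fit without the block. With the replicate number as a block the number of genes called by limma went from 1 to 8, or 0.123%, and still 0 members were among them. Voom with the block called 0 members and 0.0928% of genes. The libraries of the groups failed to overlap for 0 of the 10 members, 5 of which are in the limma fit, beside 2.28% of the genes of that fit.

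For BCL2L11 and BMF the differences within the 30 min experiment lay between replicate numbers, not between treatments. BCL2L11 had 0.330 RPKM in DMSO replicate 1 but 0.925 and 1.11 in replicates 2 and 3, and 0.332 in merbarone replicate 1 but 0.945 and 1.13 in replicates 2 and 3. Same-numbered libraries thus differed by no more than 1.02 times, while the mean of the replicate 1 libraries was 0.322 times that of the others. BMF showed the same order, at 2.11, 4.90 and 5.54 RPKM with DMSO and 1.94, 4.43 and 5.88 with merbarone, a ratio of 0.391. BBC3 had a ratio of 0.605. MCL1, BCL2 and BCL2L1 went the other way, at 1.18, 1.27 and 1.17. Over 14013 genes the median of this ratio was 0.956 and 2.41% of genes lay at or below 0.5, with 0.578% of genes lower than BCL2L11 and 1.03% lower than BMF. Because of this spread the 30 min interval of BMF ran from -0.999 to 0.91 on the log2 scale, and from -0.16 to 0.07 once the replicate number was a block.

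The plot of same-numbered libraries shows how closely each pair ran.

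**Figure D2:**
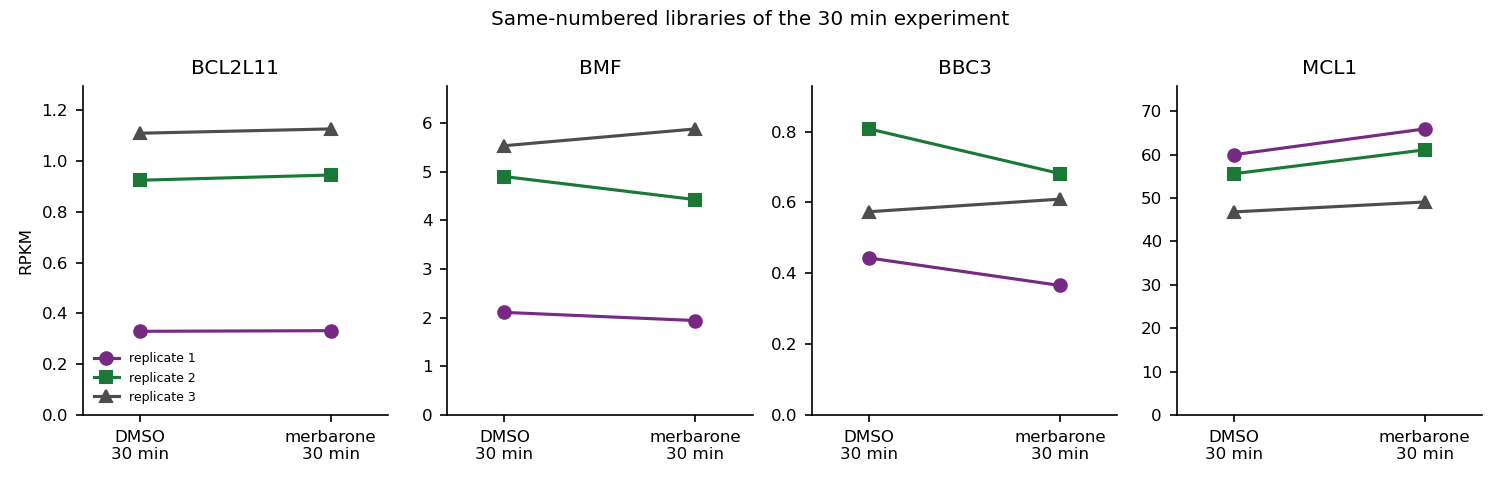
RPKM (vertical axis, from 0) of BCL2L11, BMF, BBC3 and MCL1 in the DMSO and merbarone libraries of the 30 min experiment, with a line joining libraries of the same replicate number. For BCL2L11 and BMF the replicate 1 pair lies below the other pairs and the lines are nearly flat; for MCL1 the replicate 1 pair lies highest.

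After 2 h of merbarone, BBC3 and PMAIP1 rose and limma called no other member. The untreated controls had received no vehicle, so merbarone and its solvent cannot be told apart in this comparison. BBC3 had 0.810 and 0.903 RPKM untreated and 4.29 and 5.36 with merbarone, from 129 and 129 against 701 and 835 reads. Both treated libraries lay far above both controls, and the mean went from 0.857 ± 0.0655 to 4.82 ± 0.760 RPKM (SD, n = 2), 5.63 times the untreated mean. The difference of log2(RPKM + 1), a scale that compresses the change of a gene this low, was 1.64 with a standard error of 0.10 and an adjusted p of 1.74e-05 in limma. BBC3 passed the filter only through its treated libraries, and on the recovered reads voom gave a log2 difference of 2.48 (2.14 to 2.83). PMAIP1 had 6.179 and 6.003 RPKM untreated and 15.1 and 18.3 with merbarone. Its mean went from 6.09 ± 0.125 to 16.7 ± 2.32 RPKM (SD, n = 2), 2.74 times the untreated level, at a log2 difference of 1.31, a standard error of 0.11 and an adjusted p of 0.000130 in limma.

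In all, 6 of the 10 members passed the 2 h filter and 2 were called, both higher, where limma called 13.1% of 6620 genes, 5.98% higher and 7.10% lower. The count of members is too small to be read against that share. The log2 difference of BBC3 stayed between 1.51 and 1.78, and that of PMAIP1 between 1.18 and 1.45, when any 1 of the 4 libraries was left out, and both remained called. Without the filter on low values both missed the threshold, with an adjusted p of 0.0516 for BBC3 and 0.0696 for PMAIP1 in limma. In bulk RNA, a change in each cell and a change in the share of cells that express the gene cannot be told apart.

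Of the remaining BH3-only genes, BCL2L11 was called by voom alone and BMF by neither fit. BCL2L11 had 0.563 and 0.477 RPKM untreated and 0.780 and 0.755 with merbarone, so that both treated libraries lay above the controls. It was below limma's filter. Voom, which tested 9 members, called it with BBC3 and PMAIP1, at a log2 difference of 0.56, a standard error of 0.14 and an adjusted p of 0.00912, where voom called 14.0% of 13441 genes and 7.94% as higher. The call was lost without merbarone replicate 1 (adjusted p 0.148 in voom) or without merbarone replicate 2 (0.0777). BMF had 6.66 and 7.47 RPKM untreated and 10.2 and 7.63 with merbarone. Both merbarone libraries lay above both controls, replicate 2 only narrowly, and the log2 difference was 0.29 (-0.01 to 0.58) with an adjusted p of 0.169 in limma, which became 0.0460 without untreated replicate 2. Voom called BMF without untreated replicate 2 (0.000834) or without merbarone replicate 2 (0.0430). BIK had 6 and 6 reads untreated and 8 and 7 with merbarone.

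The survival genes and the effectors did not pass the test at 2 h. MCL1 had 66.9 and 61.6 RPKM untreated and 55.0 and 55.1 with merbarone. Both treated libraries lay below the controls, and the log2 difference was -0.22 (-0.47 to 0.03), with an adjusted p of 0.208 in limma and 0.139 in voom. Among the voom fits without 1 library, that without untreated replicate 2 called MCL1 lower (adjusted p 0.0200). BCL2L1 had 4.54 and 5.14 RPKM untreated and 4.28 and 4.36 with merbarone, with a log2 difference of -0.13 (-0.34 to 0.07) and an adjusted p of 0.340 in limma. Without untreated replicate 1, voom called BCL2L1 lower with an adjusted p of 0.0313. BCL2 had 0.0743 and 0.0697 RPKM untreated and 0.0816 and 0.0892 with merbarone, and its voom difference was 0.24 (-0.09 to 0.57) with an adjusted p of 0.326.

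BAX, the effector with the higher RPKM, had 13.3 and 15.0 RPKM untreated and 11.7 and 14.8 with merbarone. It was the only member whose groups overlapped at 2 h, with a log2 difference of -0.09 (-0.38 to 0.19). BAK1 had 0.722 and 0.652 RPKM untreated and 0.408 and 0.498 with merbarone, from 74 and 60 against 43 and 50 reads. Its voom difference was -0.61 (-1.12 to -0.09) and its adjusted p 0.109. Both treated libraries lay above both controls for 5 of the 9 members that voom tested, beside 28.8% of the genes of that fit, and below for 3, beside 29.4%. They also lay above for BIK, which has too few reads for that fit. With 2 libraries in each group such separation is common: it was found in 8 of the 9 members that voom tested and in 58.2% of the 13441 genes of that fit. The median log2 difference of the 9 members was 0.24 in voom, the value of BCL2, beside 0.000295 for all genes tested. By role the median was 1.0 for the BH3-only genes, -0.161 for the anti-apoptotic genes and -0.354 for the effectors. No rise of the family as a whole is read from it.

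The plot of fold changes sets both fits side by side for each member.

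**Figure D3:**
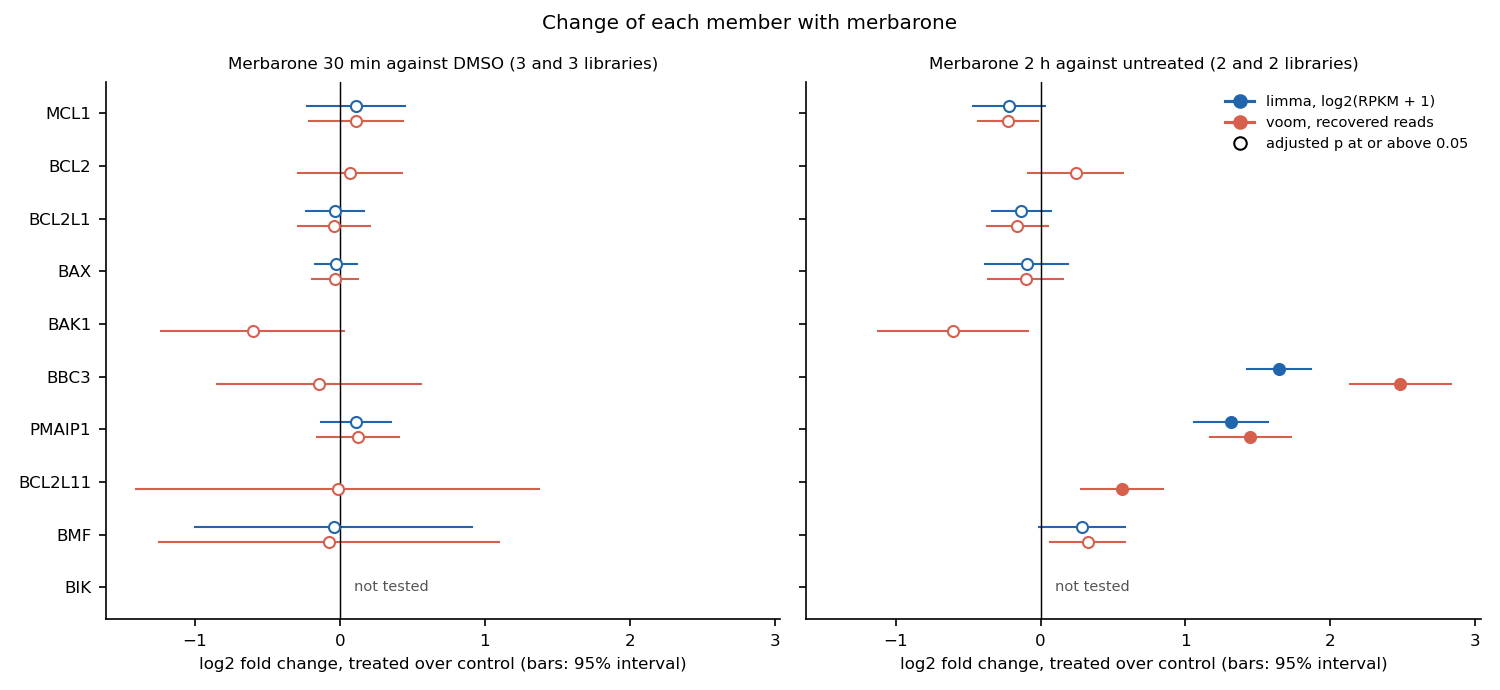
Log2 difference between merbarone and control (horizontal axis) for each member at 30 min and at 2 h, with bars for the 95% interval, from limma on log2(RPKM + 1) and from voom on the recovered reads; filled points have an adjusted p under 0.05. At 30 min no point is filled; at 2 h BBC3 and PMAIP1 are filled in both fits and BCL2L11 in voom alone, and members with no limma point were below its filter.

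The effects of the experiments differed for the same pair of genes. In a contrast over all 10 libraries, the log2 difference at 2 h minus that at 30 min was 1.69 (1.32 to 2.07) for BBC3, with an adjusted p of 0.00137, and 1.203 (0.84 to 1.57) for PMAIP1, with an adjusted p of 0.00675 in limma. BBC3 passed the filter of this contrast only through the 2 h merbarone libraries, as in the 2 h comparison. The contrast called 2 of the 6 members tested, where it called 1.63% of 6558 genes, 1.27% higher and 0.366% lower. Voom called the same 2 of 9 members at an adjusted p of 0.0303 for BBC3 and 0.0262 for PMAIP1, with 0.475% of 13900 genes called and 0.439% called higher. Of the other members in limma, MCL1 came closest, at -0.33 (-0.77 to 0.11) and an adjusted p of 0.451. With the replicate number as a block, however, limma called MCL1 lower in this contrast (-0.51 to -0.15, adjusted p 0.0269), 3 members in all, where it called 19.1% of genes. Voom with the block called MCL1 lower (adjusted p 0.0101) and BCL2L11 higher (0.00649) as well, 4 members in all, where it called 15.1% of genes. In voom without the block the calls of BBC3 and PMAIP1 were lost without DMSO replicate 3, without 30 min merbarone replicate 3 or without any 1 library of the 2 h experiment, and that of PMAIP1 also without DMSO replicate 2, at adjusted p values of 0.0518 to 0.197. Time, kind of control and experiment cannot be told apart in this contrast.

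Around the family, a list of 73 genes of the apoptosis pathway was described in the same fits. At 30 min 41 of them were tested and 0 were called in limma, and voom tested 69 and called 0, with 1 gene at an unadjusted p under 0.05 in either fit. With the replicate block limma again called 0 and voom called 1, JUN. At 2 h limma tested 44 and called 3 higher and 5 lower, while 36 did not pass. Over all genes the shares called were 13.1% in limma and 14.0% in voom, so that nothing particular to the list is read from these counts. The median log2 difference of the list was 0.00673, beside -0.0475 for all 6620 genes. Voom tested 69 at 2 h and called 8 higher and 7 lower.

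The 3 genes higher in limma belonged to the regulators of BCL2 family transcription. DDIT3, which encodes the stress-induced factor CHOP, rose to 34.2 ± 3.19 RPKM from 7.90 ± 0.946 (SD, n = 2). Its log2 difference was 1.98 with an adjusted p of 1.74e-05 in limma. It overlaps other genes on the opposite strand. JUN, a subunit of the AP-1 factor, rose to 131.5 ± 7.80 RPKM from 36.4 ± 0.645 (SD, n = 2), and its log2 difference was 1.82 with an adjusted p of 1.88e-05 in limma. JUN had 33.8 ± 6.49 RPKM with DMSO and 51.8 ± 11.7 after 30 min of merbarone (SD, n = 3), with all merbarone libraries above all DMSO libraries. Its adjusted p at 30 min was 1.0 in limma, 0.377 in limma with the replicate block and 0.0313 in voom with the block. TRIB3, a pseudokinase known as a target of CHOP and ATF4, rose to 2.61 ± 0.268 RPKM from 1.36 ± 0.279 (SD, n = 2), and its log2 difference was 0.61 with an adjusted p of 0.00504. DDIT3 and TRIB3 were the 2 genes of the list called in the contrast between the experiments, at 1.95 and 0.67. With the block limma called 10 genes of the list in that contrast, 5 higher and 5 lower, and voom 14, 9 higher and 5 lower. ATF4 itself had 49.5 ± 5.46 RPKM untreated and 63.0 ± 4.32 with merbarone (SD, n = 2), a log2 difference of 0.35 that missed the threshold in limma (adjusted p 0.0962) and passed it in voom (0.0357). TNFRSF10B, the death receptor DR5 and a further target of CHOP, had 4.04 ± 0.178 and 4.83 ± 0.475 RPKM (SD, n = 2) and an adjusted p of 0.161 in limma.

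The 5 genes lower in limma had smaller log2 differences, -0.52 to -0.26, and came from 4 of the roles. BIRC5, which encodes the mitotic protein and caspase inhibitor survivin, fell to 11.9 ± 0.911 RPKM from 17.6 ± 0.565 (SD, n = 2), at a log2 difference of -0.52 and an adjusted p of 0.0137 in limma. The mitochondrial channel VDAC3 had a log2 difference of -0.39 (adjusted p 0.0247), the adaptor TRADD -0.39 (0.0343), the decoy receptor TNFRSF10D -0.37 (0.0398) and the executioner caspase CASP6 -0.26 (0.0299), all in limma. Of the 13 other BCL2 family genes of the list, 7 were tested by limma and 10 by voom, and 0 were called by either fit at 2 h, with 0 at an unadjusted p under 0.05 in limma or voom. Of the 15 genes of the apoptosome and the caspases, 8 were tested by limma with 0 higher and 1 lower, and 14 by voom with 0 higher and 3 lower, CASP6 and APAF1 among them. CASP6, APAF1 and TNFRSF10B each share bases with a gene on the opposite strand.

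The plot of pathway genes places the members among these groups.

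**Figure D4:**
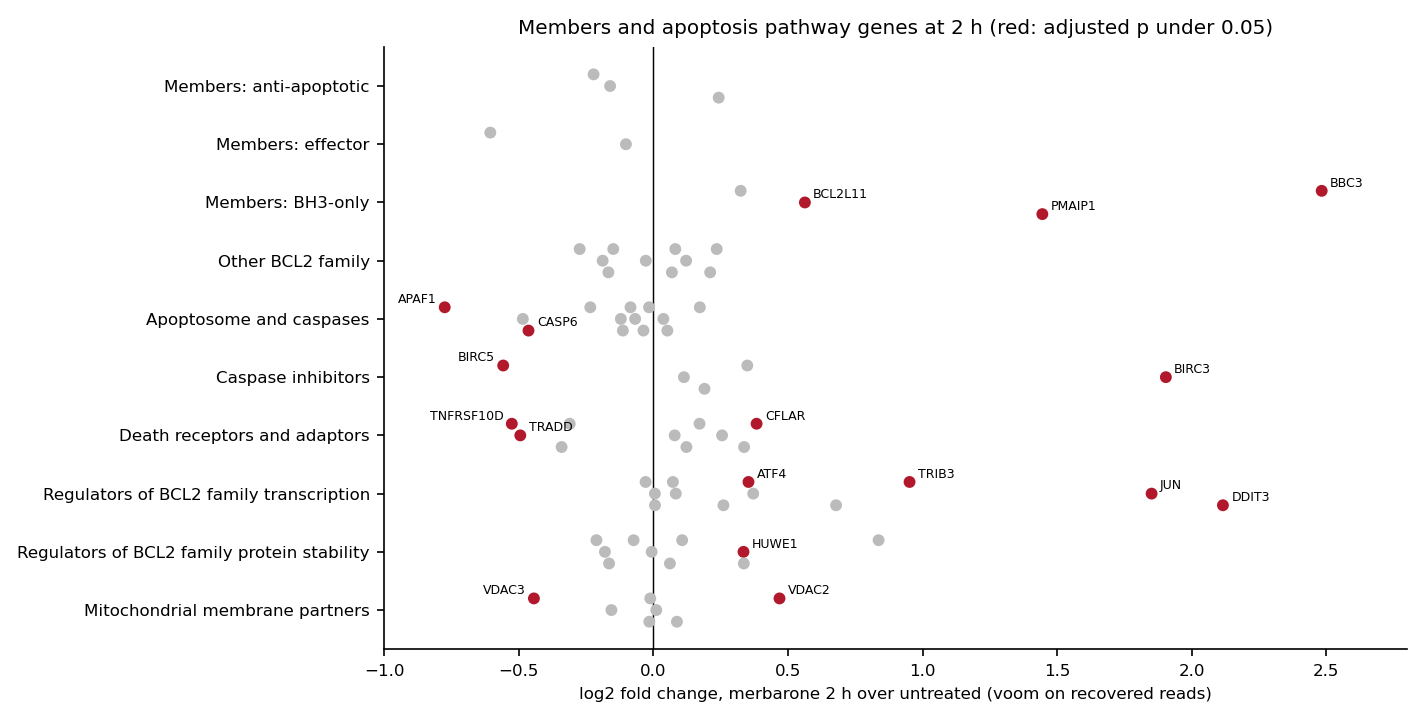
Log2 difference between 2 h merbarone and untreated cells (horizontal axis, voom on recovered reads) for the members and most pathway genes, grouped by role; red points have an adjusted p under 0.05. BBC3 at 2.48, DDIT3 at 2.12, BIRC3 at 1.90, JUN at 1.85 and PMAIP1 at 1.45 lie farthest to the right, and the red points to the left lie between -0.78 and -0.44.

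The genes whose pattern was most like that of the risen pair were found by the Pearson correlation of log2(RPKM + 1), taken relative to the controls of the same experiment, over the 10 libraries and 6558 genes. For BBC3 they were SESN2, which encodes the stress-induced sestrin 2 (r = 0.996), the unnamed gene ENSG00000228804 (0.996) and DDIT3 (0.996), and PMAIP1 had r = 0.988 with BBC3. SESN2 had 0.818 ± 0.0495 RPKM untreated and 6.59 ± 1.49 after 2 h of merbarone (SD, n = 2), while it had 0.688 ± 0.175 with DMSO and 0.669 ± 0.115 after 30 min (SD, n = 3). For PMAIP1 they were PIM1, a kinase gene (r = 0.994), PSAT1, an enzyme of serine synthesis (0.992), and SLC25A21-AS1, an antisense RNA (0.989). PIM1 had 5.05 ± 0.129 RPKM untreated and 17.5 ± 2.17 after 2 h (SD, n = 2). These correlations describe values that were all highest in the same 2 of 10 libraries, those of 2 h merbarone. BBC3 and SESN2 passed the filter on low values only through those libraries, as their means in every other group lay below 1 RPKM. The means of ENSG00000228804, PSAT1 and SLC25A21-AS1 lay below 1 RPKM in both 30 min groups. For such low genes the selection itself favoured a high r. PMAIP1, DDIT3 and PIM1 had means above 1 RPKM in every group.

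On GRCh37, with the annotation of GENCODE v44 lifted to that build, BBC3 (ENSG00000105327) lies on chromosome 19 from 47724079 to 47736023 on the minus strand and PMAIP1 (ENSG00000141682) on chromosome 18 from 57567228 to 57571537 on the plus strand. BCL2L11 (ENSG00000153094) lies on chromosome 2 from 111876955 to 111926021 (plus), BMF (ENSG00000104081) on chromosome 15 from 40380091 to 40401093 (minus) and BIK (ENSG00000100290) on chromosome 22 from 43506756 to 43525718 (plus). MCL1 (ENSG00000143384) lies on chromosome 1 from 150533371 to 150552214 (minus), BCL2L1 (ENSG00000171552) on chromosome 20 from 30252255 to 30311792 (minus) and BCL2 (ENSG00000171791) on chromosome 18 from 60790579 to 60987361 (minus). BAX (ENSG00000087088) lies on chromosome 19 from 49458072 to 49465055 (plus) and BAK1 (ENSG00000030110) on chromosome 6 from 33540324 to 33548070 (minus). For most genes the values were scaled to the whole gene, exons, introns and UTRs together, and whether reads in introns were counted is not given. The length behind the RPKM of MCL1 was 5035 bp, shorter than the annotated span of 18844 bp, which shares bases with ADAMTSL4 and ADAMTSL4-AS1. The other 9 members had lengths close to their spans, and of these BAK1 alone overlapped another gene of that annotation.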

How the data were processed

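Polyadenylated RNA of 10 libraries was sequenced after TruSeq Stranded mRNA preparation from 150 ng of total RNA, per the labels' protocols. Each library has its own table, in which the authors gave every Ensembl gene an RPKM (per the file headers). The submitters' processing notes name Bowtie 1.2.0, deepTools 2.4.1, DESeq2, edgeR and the builds hg19 and GRCh37, without saying which step used each. The read counter, annotation and strand setting are not given in the sources used here.

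Reads were recovered from the RPKM steps (tolerance 1e-05) for 100% of the 17680 genes listed above 0 in any library, and summed to within 0.0269% of the library totals. The length behind the RPKM was within 1% of the genomic span for 75.2% of 17234 genes. RPKM is relative to the reads of a library, so a rise of abundant genes lowers the rest.

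Tests used limma 3.58.1 (R 4.3.3), lmFit and eBayes(trend=TRUE), on log2(RPKM + 1) where a gene's mean over the fitted libraries reached 1 RPKM, each comparison on its own experiment, two-sided, with Benjamini-Hochberg adjustment over all genes tested and a threshold of 0.05. The contrast between experiments used all 10 libraries. Limma voom on recovered reads (mean of at least 10 reads) was an alternative, beside other filters, pseudocounts, scalings, the replicate block and leaving out libraries. Nothing states that replicates were separate cultures, so p-values measure the spread between these libraries, which may be technical. Same-numbered 30 min libraries deviated together (r = 0.925, 0.646 and 0.605), and the labels give the numbers, so these numbers were taken to pair them.

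On simulated reads with 200 genes changed, limma called 100 of 100 at a log2 size of 1 and 100 of 100 at a size of 2 in either comparison, with 8 unchanged genes called at 30 min (6503 genes run) and 25 at 2 h (6648). The changed genes had a mean of at least 2 RPKM. The simulated libraries held no replicate-number pattern and spread less than those of BMF or BCL2L11 at 30 min. The run therefore gives no measure of power for such genes or for lower ones. Members and lists were chosen with earlier results of these data known. Named were all 10 members, pathway genes called in limma (and ATF4, DDIT3 and TNFRSF10B in any case), and the 3 genes most like each risen member; further genes called only by voom or shown in the plot were named after their values were seen. PECAM1 was not analysed here, and a few genes of the lists are not reported here. Recovery and tables were made in Python 3.11.15 with pandas 2.3.3, NumPy 2.4.6 and SciPy 1.17.1, and plots with matplotlib 3.10.9.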

Additional observations from a re-analysis of the deposited data

Results flagged for a closer look

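For 2 members the effects of the 2 experiments differed in a test of the difference itself. The log2 effect at 2 h exceeded that at 30 min by 1.69 for BBC3 (adjusted p 0.00137) and by 1.203 for PMAIP1 (adjusted p 0.00675) in limma over all 10 libraries. BBC3 passed the filter of that fit only through the 2 h merbarone libraries. Both kept the call in limma when any 1 library was left out. In voom, BBC3 missed the threshold in 6 and PMAIP1 in 7 of the 10 fits without 1 library, with adjusted p up to 0.197 and 0.196. The kind of control, the time and the experiment cannot be told apart.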

How the results depend on the processing

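With 2 or 3 libraries per group, intervals are wide, a library left alone in its group is assumed to vary like the other group, and BIK and BAK1 are limited by their reads. At 30 min 0 members were called in every setting run, while the genes called went from 1 to 0 (no filter), 2 (median scaling, a filter at 5 RPKM, all 10 libraries in 1 fit or quantile normalization) and 0 to 2 without 1 library (voom 0 to 2). At 2 h the members called went from 2 to 0 with no filter, to 1 with a mean of at least 5 RPKM (BBC3 is below that filter) and to 1 with no filter and a pseudocount of 0.1. Without 1 library they numbered 2 to 3 (voom 2 to 5). The genes called at 2 h went from 866 to 53 (no filter), 397 (mean of at least 5 RPKM), 1886 (voom) and 87 (no filter, pseudocount 0.1). They numbered 2464 without untreated replicate 1, 1311 without untreated replicate 2, 328 without merbarone replicate 1 and 398 without merbarone replicate 2 (voom 528 to 4123). In the contrast between the experiments the members called went from 2 to 1 with a mean of at least 5 RPKM and stayed at 2 to 2 without 1 library (voom 0 to 2). Its genes called went from 107 to 361 (no filter), 36 (mean of at least 5 RPKM), 66 (voom) and 241 (no filter, pseudocount 0.1), and to between 38 and 86 without 1 library (voom 5 to 66). Per kilobase of exon, 2 of 10 members kept their rank in untreated cells, and 4 to 6 in the other groups. The 2 settings with no filter and a pseudocount of 0.1 or with voom and 1 library left out were chosen after seeing the data. Other causes of these changes were not tested.

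With the replicate number as a block, the genes called were 8 at 30 min, 2129 at 2 h and 1255 in the contrast, and with voom and the block 13, 3438 and 2100. Voom with the block called 4 members at 2 h and 4 in the contrast. At 2 h same-numbered libraries had r = 0.30 and share only a number. With 2 libraries per group both pairs give the same r by construction, so they are not separate evidence of pairing. At 2 h the block called BMF in addition (adjusted p 0.0112 in limma, 0.00376 in voom). In the contrast it called MCL1 lower (adjusted p 0.0269 in limma) and, in voom, BCL2L11 higher (0.00649).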
